A study of Mus musculus with 14 samples.

Results

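Sinusoidal and venous endothelial markers are 8 genes, Stab1, Stab2, Lyve1, Mrc1, Plvap, Emcn, Ackr1 and Nr2f2, taken by exact gene symbol from the probe sets of a mouse expression array. They were 8 of 18193 gene symbols on the array, with 14 of the 34945 probe sets that carry a single symbol. Nr2f2 had 6 probe sets, Lyve1 had 2 and each other gene had 1. All 8 passed a filter that dropped the dimmest probe sets by their mean over all arrays, so each has a place among the 13453 genes tested.

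RNA of sorted bone marrow stromal cells was measured on 14 arrays, 1 per sample. The groups were CD31+ cells after G-CSF (4 arrays), untreated CD31+ cells (4), GFP+ cells after G-CSF (3) and untreated GFP+ cells (3). CD31+ cells, labelled endothelial, were sorted as CD45-, ter119- and GFP-, and GFP+ cells, labelled osteoblasts, as CD45-, ter119- and CD31-. All mice were wild-type C57BL/6J of 6 to 8 weeks that carried the pOBcol2.3-GFP reporter, in which a fragment of the promoter of a type I collagen gene drives GFP in cells of the osteoblast lineage, so the reporter and not a surface marker defines the osteoblast gate. G-CSF, a cytokine that drives neutrophil production and mobilises stem cells into blood, was given under the skin at 250 ug per kg. Treated arrays are labelled 5 days in titles and protocol, whereas 7 days stand in the protocol of the untreated arrays, whose mice had vehicle alone. Whether replicates are separate animals or pools is not stated, so p-values measure only the spread between these samples.

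Marrow blood drains through sinusoids, thin-walled venous vessels whose lining takes up macromolecules with scavenger receptors and lets mature blood cells pass into the circulation. Stab1 and Stab2 encode stabilins, large scavenger receptors of sinusoidal lining cells, of which stabilin-2 clears hyaluronan. Lyve1 encodes a hyaluronan receptor best known from lymphatic vessels and liver sinusoids, and Mrc1 the mannose receptor, which macrophages also carry. Plvap forms the diaphragms that span endothelial fenestrae and caveolae, Emcn encodes the sialomucin endomucin of veins and capillaries, and Ackr1 encodes an atypical chemokine receptor of venules that binds chemokines without signalling. Nr2f2 encodes COUP-TFII, a nuclear receptor that sets venous identity. In RefSeq on GRCm38.p6 the genes lie at chr14:31139017-31168651 (Stab1), chr10:86841194-87008038 (Stab2), chr7:110850607-110862953 (Lyve1), chr2:14229414-14332023 (Mrc1), chr8:71497753-71511806 (Plvap), chr3:137341062-137431069 (Emcn), chr1:173331886-173333503 (Ackr1) and chr7:70351946-70366746 (Nr2f2), so Lyve1 and Nr2f2 share a chromosome.

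The arrays were checked before the members were compared. The 26 genes of a list of endothelial identity, among them Cdh5, Kdr, Tek, Vwf and Pecam1, were all higher in the CD31+ than in the GFP+ sort, both after G-CSF and untreated. CD31+ arrays also held signal of stromal and blood cell genes: Col1a1, the main collagen of bone, lay between 3475 and 31126 intensity units after G-CSF and between 32165 and 54712 untreated, and Ptprc, which encodes the CD45 used to gate cells out, between 1985 and 3623 after G-CSF and between 533 and 1468 untreated. An untreated CD31+ array, replicate 1, had a mean skeletal muscle list level of 13.31 on the log2 scale, against 7.81 to 9.17 in the other untreated CD31+ arrays. An untreated GFP+ array, replicate 2, had the highest Csf1r of the series (10264, against 379 and 1170 in the other untreated GFP+ arrays). Its mean list levels of blood cell genes were also above those arrays: neutrophil 13.66 (10.80 and 10.62), erythroid 10.85 (8.63 and 8.68) and B lineage 9.72 (7.27 and 7.80). Its osteoblast list was below them, at 12.79 (14.09 and 14.33). Without these 2 arrays 7 of the 8 members were still called between the untreated sorts, as were 4124 of all 13453 genes in either direction. Lyve1 missed the threshold at an adjusted p of 0.0522. For G-CSF 0 of 8 members were called in either sort, where 180 of all genes were called in CD31+ cells and 427 in GFP+ cells. Actin probe sets at the 3 prime and 5 prime ends, whose ratio grows as RNA degrades, gave ratios from 2.62 to 3.76 in CD31+ G-CSF arrays, from 3.01 to 6.57 in untreated CD31+ arrays, from 2.71 to 10.5 in GFP+ G-CSF arrays and from 3.83 to 11.0 in untreated GFP+ arrays.

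The comparison of the sorts asked how far the markers separate the sorts. In untreated mice all 8 were higher in CD31+ than in GFP+ cells at an adjusted p under 0.05, where 12.8% of all genes tested were higher. The median difference of the 8 was 3.07 on the log2 scale, against -0.0021 over all genes. For 7 of 8 the lowest CD31+ array lay above the highest GFP+ array, as it did for 15.9% of all genes, and Lyve1 was the exception. Values are intensities on a linear scale, tests were run on log2 of intensity plus 16, and folds on that scale understate the change of dim genes.

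Stab1 had intensities of 4481, 6084, 7352 and 9054 in the 4 untreated CD31+ arrays, against 300, 655 and 608 in the 3 untreated GFP+ arrays. Its dimmest CD31+ array was several times brighter than its brightest GFP+ array. The difference was 12.8-fold (3.68 ± 0.44 on the log2 scale, SE, adjusted p = 2.15e-05). Stab2, the hyaluronan-clearing relative, had 8677, 10677, 13811 and 12956 in untreated CD31+ arrays, against 557, 1814 and 1254 in untreated GFP+ arrays. Those groups were also apart, by 10.3-fold (3.37 ± 0.55, adjusted p = 0.00035). Mrc1 had 2802, 3594, 5723 and 3747 in untreated CD31+ arrays, against 341, 713 and 532 in untreated GFP+ arrays, a 7.36-fold difference (2.88 ± 0.48, adjusted p = 0.000418).

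Lyve1 was the dimmest of the 8 and gave the least secure difference. Its brighter probe set read 49.9, 77.8, 88.3 and 80.5 in untreated CD31+ arrays, against 8.9, 20.8 and 54.0 in untreated GFP+ arrays. The GFP+ array at 54.0 exceeded the CD31+ array at 49.9, so the groups overlapped. On each of the 14 arrays this probe set lay below the array's median: between 11.6% and 48.5% of probe sets were dimmer. The difference was 2.22-fold (1.15 ± 0.37, adjusted p = 0.0322), and it lost the call in 5 of the 7 fits that left out an array of the comparison (adjusted p between 0.0635 and 0.167). The other Lyve1 probe set showed a log2 difference of -0.07 ± 0.47 (adjusted p = 0.948). No detection calls were used here, so whether Lyve1 exceeded background was not tested.

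Among the proteins of the vessel wall, Ackr1 separated the sorts most in these fits. It read 6215, 5500, 9440 and 8461 in untreated CD31+ arrays, against 238, 799 and 345 in untreated GFP+ arrays, a 17.2-fold difference (4.10 ± 0.49, adjusted p = 2.26e-05). Emcn read 2149, 4500, 3757 and 2492 in untreated CD31+ arrays, against 251, 317 and 370 in untreated GFP+ arrays, a 9.53-fold difference (3.25 ± 0.28, adjusted p = 9.49e-07). Its standard error was the smallest of the 8. Plvap read 11217, 15262, 13177 and 14996 in untreated CD31+ arrays, against 1445, 4031 and 2684 in untreated GFP+ arrays. Plvap was thus bright in the GFP+ sort too, where 88.8% to 96.0% of probe sets were dimmer, and differed 5.39-fold (2.43 ± 0.39, adjusted p = 0.000307).

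Nr2f2, the transcription factor of the set, had the narrowest separation among the genes whose groups did not overlap. Its brightest probe set read 944, 1581, 1175 and 1200 in untreated CD31+ arrays, against 489, 607 and 391 in untreated GFP+ arrays. The difference was 2.42-fold (1.28 ± 0.41, adjusted p = 0.0314), and the call was lost in 5 of 7 fits without an array of the comparison (adjusted p between 0.0561 and 0.115). Taken singly, all 6 probe sets of Nr2f2 were higher in every untreated CD31+ array than in any untreated GFP+ array. The differences ran from 0.92 to 2.31 on the log2 scale, and the share of all probe sets without overlap was not counted. In the test over all probe sets 4 of the 6 passed, as did 2722 of all 45037 in that direction. The probe set with the largest difference read 288, 421, 534 and 446 in untreated CD31+ arrays, against 66.4, 97.7 and 52.7 in untreated GFP+ arrays (4.96-fold, adjusted p = 0.000214).

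After G-CSF the same comparison held for 6 of the 8, where 14.4% of all genes were higher in CD31+ cells. Ackr1 was 11.5-fold higher in CD31+ cells (3.52 ± 0.49 on the log2 scale, adjusted p = 6.62e-05), Stab2 10.4-fold (3.37 ± 0.55), Stab1 9.39-fold (3.23 ± 0.44), Emcn 6.63-fold (2.73 ± 0.28), Mrc1 4.83-fold (2.27 ± 0.48) and Plvap 3.31-fold (1.73 ± 0.39, adjusted p = 0.00341). For each of these the CD31+ and GFP+ arrays did not overlap, as for 18% of all genes. Nr2f2 read 1012, 1015, 2637 and 517 in CD31+ G-CSF arrays, against 353, 480 and 746 in GFP+ G-CSF arrays. Its groups overlapped through CD31+ replicate 4 and GFP+ replicate 3, and its difference of 1.09 ± 0.41 missed the threshold (adjusted p = 0.0538). It passed without either of these arrays (adjusted p = 0.00904 and 0.0393). Of its probe sets fitted singly 3 of 6 passed, where 3063 of all 45037 were higher in CD31+ cells. Of the others, 1 had a difference below 0 (-0.73 ± 0.49, adjusted p = 0.344). Lyve1 read 44.7, 58.9, 76.3 and 37.1 in CD31+ G-CSF arrays, against 38.6, 74.6 and 85.6 in GFP+ G-CSF arrays, and those ranges cover each other (-0.21 ± 0.37, adjusted p = 0.716).

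**Figure D1:**
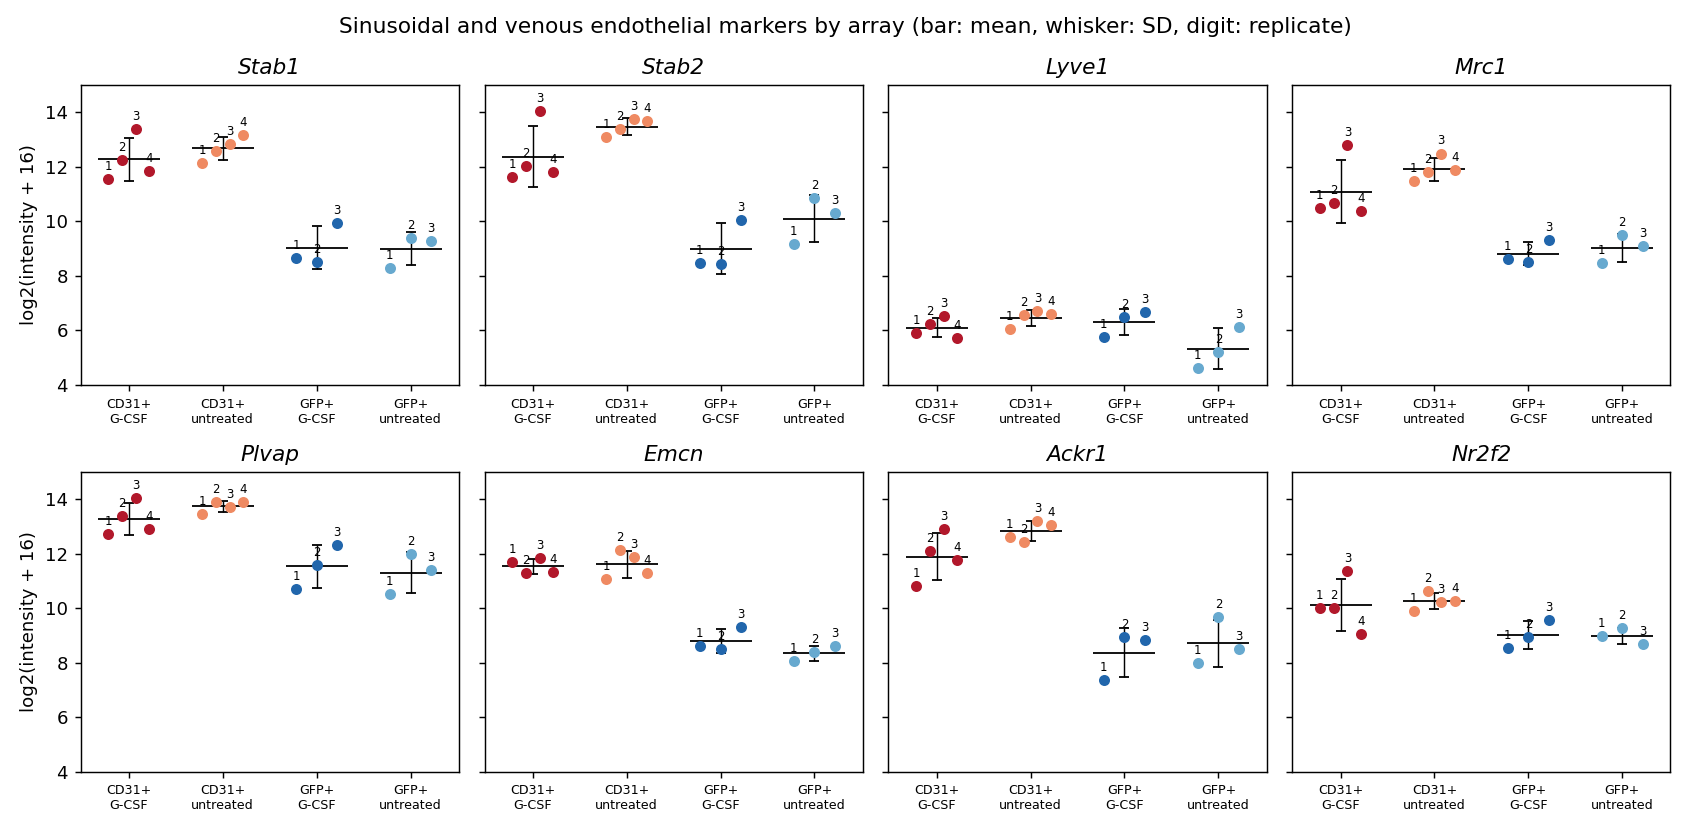
Each panel is 1 gene and each point 1 array, as log2 of intensity plus 16, with the replicate number above it; bars are group means and whiskers SD. In every panel but that of Lyve1, which lies low in all groups, both CD31+ means are above both GFP+ means, and CD31+ G-CSF replicate 3 is the highest of its group for all 8 genes.

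**Figure D2:**
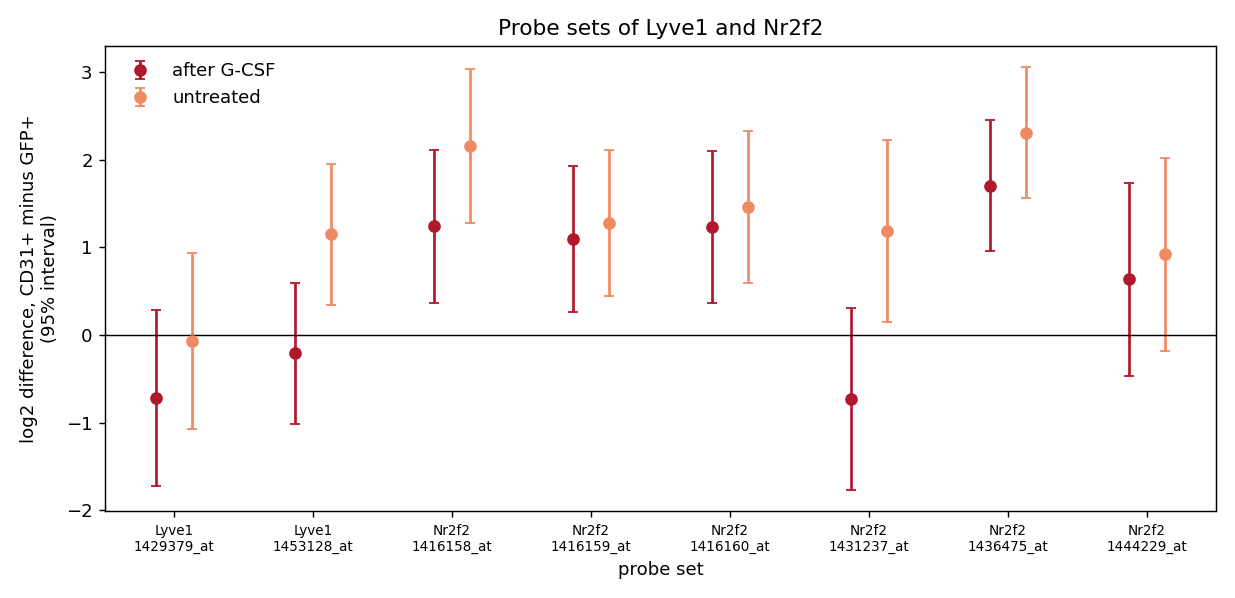
Log2 difference between CD31+ and GFP+ arrays for each probe set of Lyve1 and Nr2f2, after G-CSF (dark) and untreated (light), with 95% intervals. All 6 untreated Nr2f2 differences are above 0, from 0.92 to 2.31, and after G-CSF 5 are above 0 and 1 is below (-0.73). The Lyve1 probe sets disagree untreated (1.15 and -0.07) and are both below 0 after G-CSF (-0.21 and -0.72).

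By the mean of log2 values, untreated CD31+ cells were the highest group for all 8 genes. CD31+ cells after G-CSF came next for 7 of them, and for Lyve1 the GFP+ G-CSF arrays came between them. The order within a sort, G-CSF against untreated, did not pass the test for any of the 8.

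Sequence before the gene start is shown for 3 of these genes that have no other annotated gene in that stretch, as context for genes that were high in the same sort. RefSeq promoter windows of 300 bases, from 250 before to 50 after a start on GRCm38.p6, were matched for 6 of the 8 members, Stab1, Stab2, Mrc1, Emcn, Ackr1 and Nr2f2, and not for Lyve1 and Plvap. The core of ETS family sites (AGGAAG), the GATA family site (AGATAA), the half-site of nuclear receptors (AGGTCA) and the TATA box (TATAAA) were searched as these letters on both strands, and 0 pairs of matches overlapped in the member windows. The ETS core stood in 6 of 6 member windows and in 35.4% of all 32851 windows. The nuclear receptor half-site stood in 3 of 6 members, Stab2, Emcn and Ackr1, and in 16.3% of all windows, the GATA site in 1 of 6 (Ackr1) and 11.2%, and the TATA box in 0 of 6 and 13.6%. A match is a description of letters and not a bound site. The 150 bases before each gene's annotated span are printed 5′ to 3′ on the gene's strand, with matches in capitals; CTTCCT is the ETS core and TGACCT the nuclear receptor half-site read from the opposite strand. The positions are chr14:31168652-31168801 (minus strand) for Stab1, chr2:14229264-14229413 (plus) for Mrc1 and chr3:137340912-137341061 (plus) for Emcn.
Stab1: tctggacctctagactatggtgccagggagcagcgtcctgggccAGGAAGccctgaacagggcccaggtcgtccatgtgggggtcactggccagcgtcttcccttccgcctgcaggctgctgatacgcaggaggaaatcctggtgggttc
Mrc1: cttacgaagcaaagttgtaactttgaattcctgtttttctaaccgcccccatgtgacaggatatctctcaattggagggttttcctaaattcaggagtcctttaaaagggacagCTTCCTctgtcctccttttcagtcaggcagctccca
Emcn: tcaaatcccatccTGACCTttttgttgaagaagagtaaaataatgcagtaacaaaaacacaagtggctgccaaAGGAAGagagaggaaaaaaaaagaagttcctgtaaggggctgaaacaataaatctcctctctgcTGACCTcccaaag

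The second comparison was G-CSF against untreated within the CD31+ sort. None of the 8 markers passed the test, where 1.6% of all genes (215 of 13453) did. With the replicate number as a block 660 genes and again 0 members passed. The count of all genes was 31, 388, 31 and 28 without untreated replicates 1, 2, 3 and 4, and 57 and 118 without G-CSF replicates 2 and 3. At an unadjusted p under 0.05 there were 1765 genes (13.1%) and 1 member, Stab2. With arrays weighted by their fit 2 members passed, Stab2 (-1.39, adjusted p = 0.0451) and Ackr1 (-1.20, adjusted p = 0.0482), in a fit that called 7.65% of all genes. For 0 of 8 members were the treated and untreated arrays free of overlap, as they were for 10.3% of all genes. With 1 probe set per gene all 8 fitted differences were below 0, with a median of -0.44 on the log2 scale. The median over all genes was -0.05, and 57.4% of them were negative. Fitted singly, the other Lyve1 probe set had 0.02 ± 0.44. The other Nr2f2 probe sets had 0.047, 0.018, 0.005, -0.20 and -0.68. Centred on array medians, Emcn (0.12) and Nr2f2 (0.040) were above 0. In bulk RNA, fewer cells of a type and less RNA per cell cannot be told apart.

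Stab2 had the lowest fitted value. It read 3142, 4112, 16774 and 3529 in CD31+ G-CSF arrays, against 8677, 10677, 13811 and 12956 in untreated CD31+ arrays. Replicates 1, 2 and 4 of the G-CSF group were below every untreated array and replicate 3 was above all of them. The log2 difference was -1.11 ± 0.51, with a 95% interval from -2.19 to -0.02 (adjusted p = 0.367). Without replicate 3 it was -1.66 (adjusted p = 0.0812).

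Mrc1 had the same arrangement, with 1432, 1631, 7128 and 1309 in CD31+ G-CSF arrays, against 2802, 3594, 5723 and 3747 in untreated CD31+ arrays. The log2 difference was -0.82 ± 0.45 (95% interval from -1.77 to 0.13, adjusted p = 0.487). Without replicate 3 it was -1.39 and passed the test (adjusted p = 0.0431), in a fit that called 118 genes, 0.877% of all. Stab1 read 2996, 4906, 10699 and 3702 in CD31+ G-CSF arrays, against 4481, 6084, 7352 and 9054 in untreated CD31+ arrays. Here replicate 2 of the G-CSF group lay within the untreated range (-0.41 ± 0.41, 95% interval from -1.28 to 0.46).

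Ackr1 read 1774, 4386, 7551 and 3459 in CD31+ G-CSF arrays, against 6215, 5500, 9440 and 8461 in untreated CD31+ arrays. It was below the untreated array of the same replicate number in 4 of 4 pairs, by 0.32 to 1.80 on the log2 scale, and replicate 3 alone reached the untreated range. The log2 difference was -0.93 ± 0.46 (95% interval from -1.91 to 0.04, adjusted p = 0.410, and 0.0882 with the replicate number as a block). Plvap read 6747, 10625, 16589 and 7705 in CD31+ G-CSF arrays, against 11217, 15262, 13177 and 14996 in untreated CD31+ arrays. Its replicate 3 was again above every untreated array and the other 3 below (-0.47 ± 0.36, adjusted p = 0.696).

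Emcn was the member with the least difference between treatments in this sort. It read 3287, 2467, 3634 and 2565 in CD31+ G-CSF arrays, against 2149, 4500, 3757 and 2492 in untreated CD31+ arrays, and the treated range lay within the untreated one (-0.06 ± 0.26, 95% interval from -0.61 to 0.48). Nr2f2 read 1012, 1015, 2637 and 517 in CD31+ G-CSF arrays, against 944, 1581, 1175 and 1200 in untreated CD31+ arrays. Treated arrays held both the highest and the lowest value (-0.14 ± 0.38, 95% interval from -0.95 to 0.67). Lyve1 overlapped as well (-0.37 ± 0.34, adjusted p = 0.772).

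**Figure D3:**
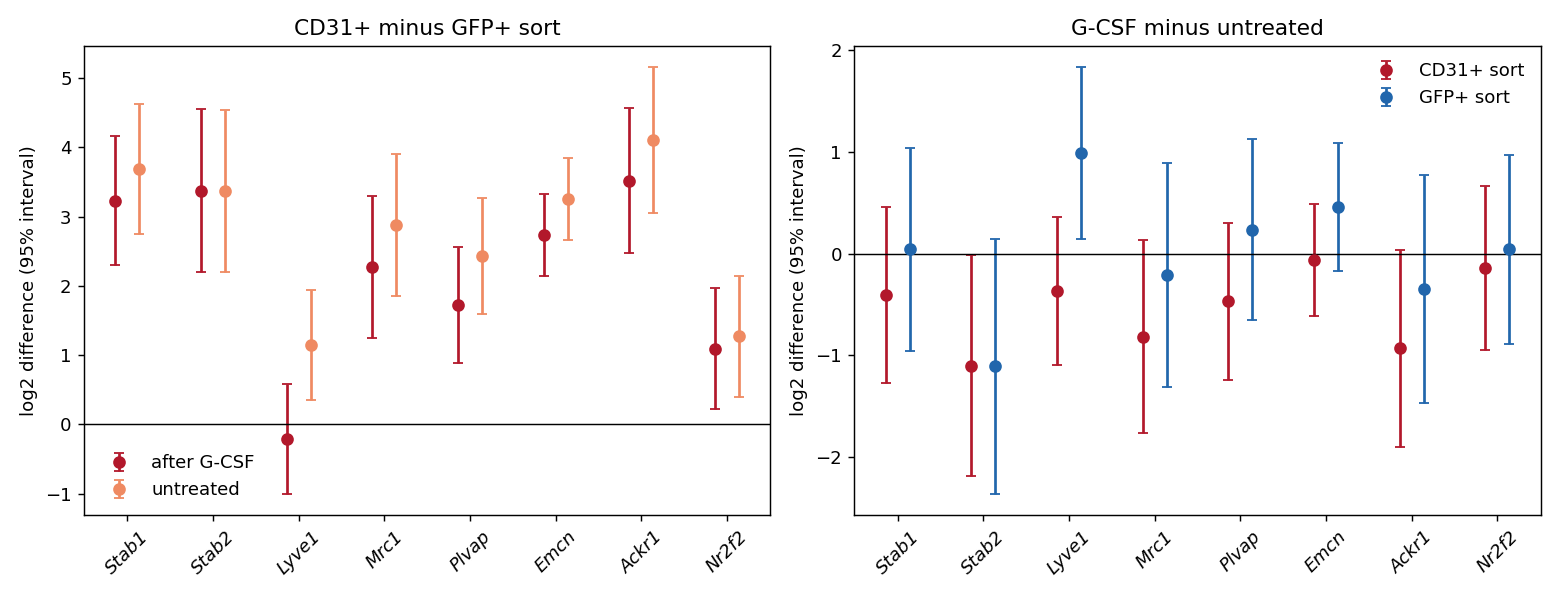
Log2 differences with 95% intervals for the 8 genes, CD31+ minus GFP+ on the left (after G-CSF dark, untreated light) and G-CSF minus untreated on the right (CD31+ red, GFP+ blue). Differences between sorts reach 4.10 (Ackr1, untreated), while every G-CSF difference in CD31+ cells lies between -1.11 and -0.06 and most intervals cross 0.

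The G-CSF value of several members in CD31+ cells turned on replicate 3. This array was the highest of its group for 8 of 8 members, as for 27.7% of all genes, and above all untreated CD31+ arrays for 5 of 8 (Stab1, Stab2, Mrc1, Plvap and Nr2f2), as for 21.8% of all genes. The other 3 G-CSF arrays were all below the untreated arrays for 4 of 8 (Stab2, Mrc1, Ackr1 and Plvap), as for 9.54% of all genes. Stab2 was 4.08 times and Mrc1 4.37 times as bright in replicate 3 as in the next G-CSF array. Mean log2 levels of gene lists moved with the members in this array: other sinusoidal genes averaged 12.03, against 10.97 to 11.20 in the other G-CSF arrays and 11.47 to 11.85 untreated, and other venous genes 11.48, against 10.69 to 10.97 and 10.87 to 11.31. The lists share some genes. Flt4 is in the other sinusoidal and lymphatic lists, and Vwf in the other venous and endothelial identity lists. Cxcl12 is in the arterial and reticular stromal lists. The lymphatic list averaged 9.16 in replicate 3, against 8.34 to 8.48 in the other G-CSF arrays and 8.79 to 9.31 untreated. The macrophage list averaged 8.12, against 7.65 to 7.83 in the other G-CSF arrays and 7.36 to 8.42 untreated, and its part in the Mrc1, Stab1 and Stab2 values of this array was not tested. Csf1r (3277, against 1097 to 3054 in the other G-CSF arrays) and Adgre1 (375, against 171 to 331) were also highest in replicate 3. Other lists were low in it: arterial genes averaged 10.70, against 10.84 to 11.31 in the other G-CSF arrays, pericyte and smooth muscle genes 10.39, against 10.74 to 11.61, and skeletal muscle genes 6.87, against 8.26 to 8.48. Genes of caveolae averaged 12.37, against 12.77 to 13.22, and reticular stromal genes 9.81, against 10.21 to 10.60. Endothelial identity genes averaged 12.79 in replicate 3, within the 12.70 to 13.12 of the other G-CSF arrays. What set this array apart was not tested.

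**Figure D4:**
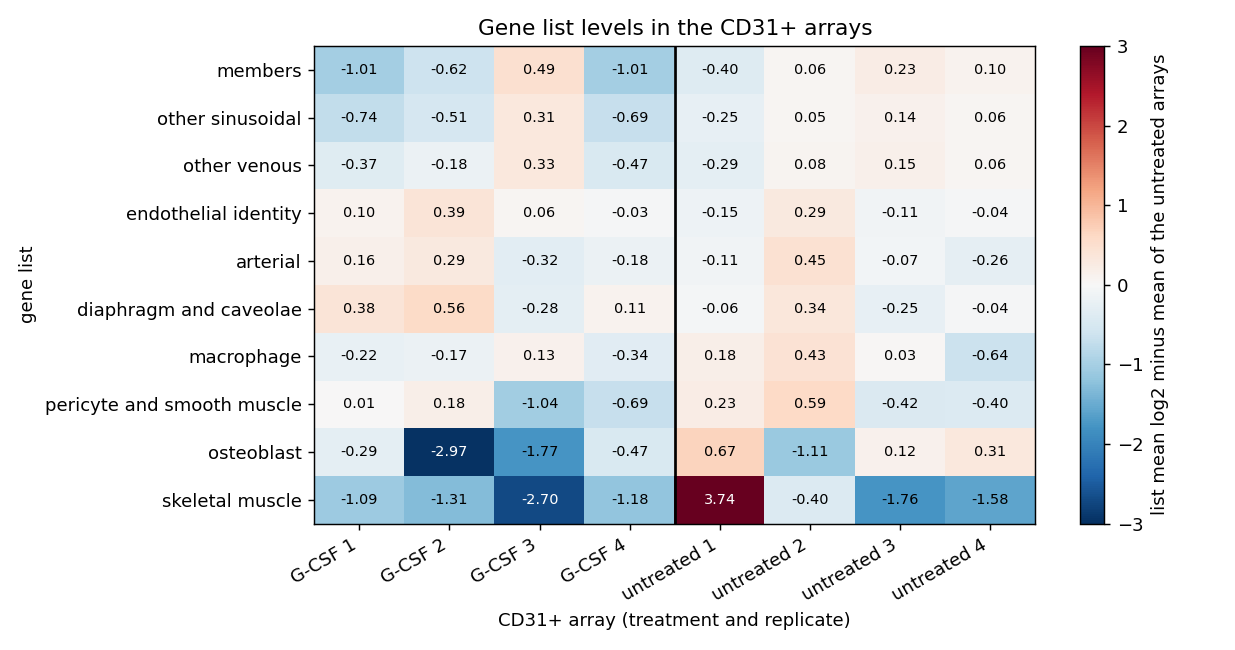
Rows are gene lists and columns the 8 CD31+ arrays; each cell is the list's mean log2 level minus its mean over the 4 untreated arrays, with colours that stop at 3 in either direction. The 8 markers (row named members), the other sinusoidal genes and the other venous genes are below 0 in G-CSF replicates 1, 2 and 4 and above 0 in replicate 3, where pericyte and skeletal muscle genes are low.

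Lists of stromal and blood genes also differed in level with treatment in the CD31+ sort, and their part in the marker values was not tested. The osteoblast list, 11 genes tested of 15, averaged between 9.26 and 11.93 in CD31+ G-CSF arrays, against 11.12 to 12.90 in untreated CD31+ arrays, and 1 of its genes fell (Alpl), or 7 with the replicate number as a block. Summed intensity of the list ran from 46012 to 134312 after G-CSF and from 126591 to 216117 untreated. The erythroid list averaged between 6.95 and 9.10 after G-CSF, against 8.92 to 10.10 untreated, with 1 of 6 genes called lower (Klf1). The neutrophil list averaged between 12.95 and 13.72 after G-CSF, against 11.98 to 12.76 untreated, with 0 of 13 called. The reticular stromal list averaged between 9.81 and 10.60 after G-CSF, against 10.99 to 11.34 untreated, without overlap, and 2 of its 8 genes fell, Adipoq (-3.43 ± 0.24) and Pdgfra (-2.28 ± 0.45), or 3 with the replicate block. The B lineage list averaged between 6.29 and 8.07 after G-CSF, against 7.83 to 9.77 untreated, with 0 of 9 genes called, or 3 with the block. The 26 endothelial identity genes had a median difference of 0.15, with 0 called and 18 above 0. Kdr, a receptor for VEGF, had -0.36 ± 0.21, Tek, a receptor for angiopoietins, 0.04 ± 0.20 and Cdh5, a junction cadherin, 0.03 ± 0.22.

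Other genes of sinusoids and veins were read beside the 8. Of 18 other sinusoidal genes tested (of 22 listed), 2 fell and 0 rose after G-CSF in CD31+ cells, with a median difference of -0.28. Vcam1, an adhesion molecule for blood cells, read between 2151 and 4475 after G-CSF, against 9544 to 15851 untreated (-2.04 ± 0.24, adjusted p = 0.00106), and its groups did not overlap. Vcam1 did not mark the CD31+ sort. Untreated GFP+ arrays read 6858 to 11316, and the untreated sorts were not called apart (0.45 ± 0.26, adjusted p = 0.221). After G-CSF it was lower in CD31+ than in GFP+ cells (-1.08 ± 0.26, adjusted p = 0.00462). Oit3, a secreted protein of liver sinusoids, fell by 2.73 ± 0.48 on the log2 scale (adjusted p = 0.0171). Dnase1l3, a nuclease that digests DNA of cell debris, had -1.50 ± 0.43 and passed only with the replicate block (adjusted p = 0.0921, and 0.0256 with it). Flt4, the VEGF-C receptor of lymphatic and sinusoidal vessels, read between 3474 and 12700 after G-CSF, against 4365 to 8534 untreated (-0.30 ± 0.42, adjusted p = 0.870).

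Of 9 other venous genes tested, 0 passed, with a median of -0.17. Nrp2, a co-receptor for VEGF-C and semaphorins, had -1.43 ± 0.42 (adjusted p = 0.103, and 0.00376 with the replicate block), and Ephb4, the ephrin receptor of veins, had 0.41 ± 0.27. Among 19 arterial genes 0 passed, or 1 with the block (Cxcl12, -0.48 ± 0.17), with a median of -0.06. Cxcl12 is also in the reticular stromal list, and which cells gave its value was not tested. Efnb2, the arterial partner of Ephb4, had 0.30 ± 0.28. Of 7 genes of caveolae, the membrane pits that Plvap diaphragms close, 0 passed, with a median of 0.24, and Cav1 had -0.07 ± 0.26. None of 7 lymphatic genes passed either, or 1 with the block (Pdpn, -1.40 ± 0.45), and Prox1, the transcription factor of lymphatic identity, was dim in both groups (44.5 to 118 after G-CSF, 60.6 to 93.8 untreated).

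These lists were also compared between the sorts of untreated mice, where the 8 were higher in CD31+ cells. Of 18 other sinusoidal genes 12 were higher in CD31+ cells and 1 lower (Maf, a transcription factor, -1.99 ± 0.44), led by Cd36, a fatty acid and scavenger receptor, at 5.66 ± 0.32, and Fabp4, a fatty acid carrier, at 3.69 ± 0.24. Of 9 other venous genes 7 were higher, with Vwf at 5.05 ± 0.47, and 1 lower, Nrp2, which read between 2284 and 5431 in untreated CD31+ arrays, against 5603 to 18453 in untreated GFP+ arrays. Of 19 arterial genes 12 were higher and 1 lower. Sox17, a transcription factor of arteries, differed by 3.83 ± 0.28. All 7 caveolar genes were higher, Cavin2 by 4.43 ± 0.22 and Cav1 by 4.25 ± 0.28.

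Relatives of the members did not all follow them. Of the mannose receptor family, Pla2r1 was lower in untreated CD31+ cells (-2.15 ± 0.30, adjusted p = 7.96e-05) and Mrc2, a collagen receptor, was not called (-1.02 ± 0.66), where Mrc1 was higher. Of the atypical chemokine receptors, the chemokine scavengers Ackr2 (2.10 ± 0.42) and Ackr3 (1.80 ± 0.31) were higher in CD31+ cells, as Ackr1 was, and Ackr4 was lower (-2.36 ± 0.63, adjusted p = 0.0122). The COUP-TF relatives Nr2f1 (0.38 ± 0.42) and Nr2f6 (0.18 ± 0.21) were not called. Of 13 other scavenger receptor genes 3 were higher and 4 lower, with a median of -0.16. Cd44, a hyaluronan receptor as Lyve1 is, was lower in CD31+ cells (-0.91 ± 0.25, adjusted p = 0.0131), while the sialomucins Podxl (4.50 ± 0.21) and Cd34 (2.93 ± 0.26) were higher, as Emcn was.

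Macrophages also carry Mrc1, Stab1 and Lyve1, so their markers were read in both sorts. Of 15 macrophage genes tested (of 20 listed), 0 were higher and 1 lower (Mertk) in untreated CD31+ cells. Adgre1, the F4/80 antigen, read between 191 and 309 in untreated CD31+ arrays and between 134 and 566 in untreated GFP+ arrays, and Csf1r, the receptor of macrophage growth factor, between 911 and 2718 in CD31+ and between 379 and 10264 in GFP+. The summed intensity of the list ran from 4580 to 15391 in untreated CD31+ arrays and from 4447 to 19918 in untreated GFP+ arrays, and no defining marker named here was at 0. In CD31+ cells it ran from 6921 to 11235 after G-CSF, with 10945 in replicate 3, and 0 of 15 genes were called against untreated.

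The third comparison was G-CSF against untreated in the GFP+ sort. None of the 8 passed, where 0.23% of all genes (31) did, or 64 with the replicate block, again with 0 members. Without untreated GFP+ replicates 1, 2 and 3 the count of all genes was 12, 475 and 7, and without G-CSF replicates 1 and 2 it was 4 and 9, each with 0 members. At an unadjusted p under 0.05 there were 1191 genes (8.85%) and 1 member, Lyve1. The treated and untreated arrays overlapped for all 8, and were free of overlap for 9.29% of all genes. The median difference of the 8 was 0.04, against -0.04 over all genes. Lyve1 read 38.6, 74.6 and 85.6 in GFP+ G-CSF arrays, against 8.9, 20.8 and 54.0 in untreated GFP+ arrays, and was higher in 3 of 3 same-numbered pairs, with overlap between the groups (0.99 ± 0.40, 95% interval from 0.14 to 1.83, adjusted p = 0.453). Stab2 read 343, 328 and 1055 in GFP+ G-CSF arrays, against 557, 1814 and 1254 in untreated GFP+ arrays, lower in 3 of 3 pairs (-1.11 ± 0.59, 95% interval from -2.37 to 0.15, adjusted p = 0.637). Emcn read 374, 345 and 620 in GFP+ G-CSF arrays, against 251, 317 and 370 in untreated GFP+ arrays, higher in 3 of 3 pairs (0.46 ± 0.30, adjusted p = 0.725). The other 5 members had differences between -0.35 (Ackr1) and 0.24 (Plvap).

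The difference between the 2 G-CSF changes, CD31+ minus GFP+, was tested as an interaction. No member passed and 0% of all genes did (622, or 4.62%, had an unadjusted p under 0.05, and 1 gene passed with the replicate block). Lyve1 had the largest value of the 8, -1.36 ± 0.52 (95% interval from -2.48 to -0.24, adjusted p = 0.947). Stab2 had a fitted G-CSF difference of -1.11 in both sorts, not called in either. With each array left out in turn this difference ran from -1.66 to -0.86 in CD31+ cells and from -1.65 to -0.74 in GFP+ cells.

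Members were compared with each of the 13445 tested genes outside the set by the shape of their levels over the 14 arrays, as the root mean square difference between log2 profiles that had each been centred on its mean. The groups and libraries that all genes share shape this measure, and it is given as a description. Stab1 was nearest to Kcnj8 (0.26), which encodes a potassium channel subunit, then Flt4 (0.26) and the endothelial protocadherin Pcdh12 (0.29), where the median over those genes was 1.86. Stab2 was nearest to Gpm6a (0.43), Dnase1l3 (0.45) and Flt4 (0.46), and Ackr1 to Pcdh12 (0.56), Robo4 (0.56), an endothelial guidance receptor, and Dnase1l3 (0.59). Within the set, Stab1 was closer to Ackr1 (0.55) than any of these, and Stab1 and Stab2 differed least over the 14 arrays (0.52). Emcn was nearest to Rasgrp3 (0.21), an exchange factor for Ras proteins, Tnfsf10 (0.28), the ligand TRAIL, and Rapgef5 (0.33). Mrc1 was nearest to Exoc3l2 (0.31), Clca3a1 (0.38) and Il13ra2 (0.40), and Plvap to Enc1 (0.28), Trp53i11 (0.29) and Ltc4s (0.34), the leukotriene C4 synthase. Nr2f2 was nearest to Zfp423 (0.30), Chst2 (0.32) and Ipo11 (0.33), and Lyve1 to Jazf1 (0.33), Ttyh3 (0.35) and Cmklr1 (0.37), against medians of 0.90 and 0.74 over all genes outside the set. Among the members themselves, over the 8 CD31+ arrays, Stab2 and Mrc1 had the smallest difference (0.21) and Stab2 and Emcn the largest (0.84).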

How the data were processed

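Total RNA was measured on 14 Affymetrix mouse arrays. The deposited table gives each probe set a linear intensity per array. Affymetrix Expression Console 1.1 is named in the submitters' processing notes; which of its algorithms the authors ran is not given in the sources used here. A trimmed mean of 500.0 on every array shows a common scaling, so no further normalisation was applied. Array medians still differed between the sorts, from 6.56 to 6.84 on the log2 scale in CD31+ and from 6.94 to 7.13 in GFP+ arrays. Within the CD31+ sort they were lower after G-CSF (6.56 to 6.71) than untreated (6.78 to 6.84), without overlap. Centring on them moved the genes called higher in CD31+ cells from 1722 to 2565 untreated and from 1936 to 3964 after G-CSF. The members called were then 8 and 7. For G-CSF against untreated in CD31+ cells, centring gave 135 called genes, 81 higher and 54 lower, and 0 members. Precision is limited by how many arrays each group has.

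Of 45101 probe sets, 64 were controls, 932 had several gene symbols in the platform annotation, 9160 had none and 34945 had 1. A pseudocount of 16 was added to the deposited intensities before log2 was taken. The dimmest probe sets by mean, a fraction of 0.333, were dropped and the brightest probe set stood for its gene, which left 13453 genes. A model with 4 group means was fitted in limma 3.58.1 (R 4.3.3) with a variance trend. All p-values are 2-sided limma p-values, adjusted by Benjamini and Hochberg over all genes (over all probe sets where probe sets were fitted singly), and a call is an adjusted p under 0.05. The procedure was tested on simulated data. Sequences and start positions come from RefSeq on GRCm38.p6.

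The members and gene lists were chosen with earlier results of these data known. Named genes are all members, the 3 nearest profiles of each, up to 3 called genes of a list with the largest change or 2 where none was called, and fixed key genes; genes outside this rule, Cxcl12 among them, were chosen after their values had been read.

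Titles give the replicate numbers. Deviations from the group mean correlated between same-numbered G-CSF and untreated arrays by 0.239, 0.377, 0.281 and 0.102 in CD31+ cells and by 0.223, 0.288 and 0.315 in GFP+ cells. Each was higher than with any other number except for CD31+ replicate 4, at 0.178 with another number. Every pair was over 0.1, but the titles do not state that the numbers pair the samples. A block for the replicate number was therefore fitted within each sort as an alternative and not in the main fit. Other settings tried were a pseudocount of 1 or 64, centring on array medians, quantile normalisation, other filters and other choices of probe set, only the arrays compared, array weights, other variance priors, a threshold of 0.01, each array left out in turn, and 2 arrays with high signal of other cell types left out together.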

Additional observations from a re-analysis of the deposited data

Results flagged for a closer look

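In the CD31+ G-CSF group of 4 arrays, replicate 3 stood far from the others for Stab2, at 14.04 on the log2 scale of intensity plus 16, and for Mrc1, at 12.80. The gap to the next array was larger than a test for a single outlying value allows (Dixon's test at 95%). The test was run on all 8 genes in both CD31+ groups, and chance flags about 1 in 20 such groups.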

How the results depend on the processing

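With array weights 2 members passed for G-CSF in CD31+ cells (Stab2, -1.39, adjusted p = 0.0451, and Ackr1, -1.20, adjusted p = 0.0482; 1029 genes in all, 7.65%). Leaving out each array moved that count between 0 and 1, Mrc1 being called without G-CSF replicate 3. With the replicate number as a block 0 members passed for G-CSF in CD31+ cells, 0 in GFP+ cells and 0 for the interaction, so it changed no call of a member. Signs turned only for differences far from the threshold. After G-CSF, Lyve1 in CD31+ against GFP+ cells was 0.14 with quantile normalisation and 0.17 when centred on array medians, which also turned the G-CSF differences in CD31+ cells of Emcn (0.12) and Nr2f2 (0.040). In GFP+ cells the G-CSF difference of Ackr1 was 0.11 with array weights, and without untreated GFP+ replicate 2 and untreated CD31+ replicate 1 together Ackr1 was 0.13 and Mrc1 0.028; the cause was not tested. With each array left out in turn, G-CSF differences in GFP+ cells ran from -0.41 to 0.31 (Stab1), -0.16 to 0.65 (Plvap), -0.24 to 0.29 (Nr2f2), -0.71 to 0.16 (Ackr1) and -0.49 to 0.028 (Mrc1), and in CD31+ cells from -0.24 to 0.12 (Emcn) and -0.56 to 0.21 (Nr2f2). The count of all genes called for G-CSF in CD31+ cells ran from 27 to 1029 over the alternatives, and in GFP+ cells from 2 (only the arrays compared) to 475 (without untreated replicate 2). Of 745 single-gene values under an alternative, 700 kept direction and side of the threshold. Low signal limits what Lyve1 can show, and dropping the lower 0.5 of probe sets left it untested.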
